A study of Tachysurus vachellii with 6 samples.

Results

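The miRNAs described here are miR-21 and miR-22 of a freshwater fish, the darkbarbel catfish (Tachysurus vachellii, also Pelteobagrus vachellii), measured in extracellular vesicles isolated from liver. They were taken from the deposited miRNA table by name: every row whose family number was 21 or 22, whatever its species prefix, arm or suffix. This gave 16 rows with 14 distinct sequences, out of 841 entries in all. An entry is a sequence with its listings summed. Of the 14 entries, 4 were named miR-21 and 10 were named miR-22.

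The 2 groups held 3 libraries each. The hypoxia fish were kept for 4 h in sealed water through which nitrogen was bubbled to hold the dissolved oxygen at about 1.0 mg/L, and the normoxia fish were sampled at 4 h with water at 6.8 mg/L. The fish of both groups had been fasted before the treatment. The labels call the tissue liver, and the protocol says that vesicles were prepared from it. The labels leave out whether a library came from a separate fish or from a pool, so p-values measure the spread between these samples only, and that spread may be technical.

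A miRNA precursor folds into a hairpin, from which a 5p and a 3p arm are cut. Usually only one of them is kept in abundance, and its bases 2 to 8, the seed, pair with target messenger RNAs and lower their output. In mammals miR-21-5p is a widely expressed miRNA that is raised in many tumours and in fibrosis, and it represses the tumour suppressor PDCD4. In mammals miR-22-3p is abundant in many tissues, liver among them. For miR-21 the 5p arm is the usual functional strand, and for miR-22 it is the 3p arm.

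The sequences are shown because the results compare arms and variants, and some of the names give no arm. They are given as deposited, 5′ to 3′, with T for U and with the seed in capitals. The most abundant entry of each arm comes first.
miR-21-5p, oni-miR-21: tAGCTTATcagactggtgttggc
miR-21-3p, gmo-miR-21-3p_R+1_1ss21TA: cGACAACAgtctgtaggctgac
miR-22-3p, dre-miR-22a-3p: aAGCTGCCagctgaagaactgt
miR-22-5p, dre-miR-22a-5p_R-1: aGTTCTTCactggcaagcttt
The other entries differ from these in few bases. Those that the comparisons below return to are the following.
miR-21-5p, dre-miR-21_1ss23CA: tAGCTTATcagactggtgttgga
miR-22-3p, oni-miR-22b_R-1: aAGCTGCCagctgaagaact
miR-22-3p, dre-miR-22b-3p_1ss11TC: aAGCTGCCagctgaagagctgt
miR-22-3p, ola-miR-22_R+1: aAGCTGCCagctgaagaactgc
miR-22-5p, dre-miR-22b-5p_R-1: cGTTCTTCactggctagcttt
miR-22-5p, ccr-mir-22a-p5: aGTTCTTCtctggcaaacttt

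Where a name gave the arm, it did not contradict the sequence. All 3 miR-21-5p entries carried the seed AGCTTAT, all 7 miR-22-3p entries AGCTGCC and all 3 miR-22-5p entries GTTCTTC, and the 1 miR-21-3p entry carried GACAACA. None of these seeds was found among the other entries of the table. Where a name gave no arm, the arm was taken from the shared seed, so the agreement of those entries was set by this rule. Within the dre names of miR-22 the letters a and b went with different sequences, but across species prefixes they did not separate the sequences. For example, dre-miR-22a-5p_R-1 was also listed as oni-mir-22b-p5. The seeds of miR-21-5p and miR-22-3p have the same base at 4 of their 7 positions, the first 4.

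All differences between entries of an arm lay outside the seed. For the entries placed in an arm by their seed, this was set by that rule. Positions are counted from 1 at the 5′ end, with the base of the most abundant entry of the arm first. In miR-21-5p, dre-miR-21_1ss23CA differs at its last base (C23A) and aca-miR-21-5p_R+1 at 2 bases (G16A and G22A). In miR-22-3p, oni-miR-22b_R-1 has the same letters as dre-miR-22a-3p but ends 2 nt earlier, at 20 nt. There, dre-miR-22b-3p_1ss11TC differs by A18G, ola-miR-22_R+1 by T22C, and hsa-miR-22-3p by C11T. The other entries of that arm are ola-miR-22_R+1_1ss21GC, with G21C and T22C, and ola-miR-22_R+1_1ss18AG, with A18G and T22C. In miR-22-5p, dre-miR-22b-5p_R-1 differs by A1C and A15T, and ccr-mir-22a-p5 by A9T and G17A. When the arms were folded against each other with RNAduplex, a calculation from the letters alone, oni-miR-21 and the miR-21-3p entry formed 19 base pairs at -25.2 kcal/mol. With dre-miR-22a-3p, dre-miR-22a-5p_R-1 formed 19 pairs at -26.9 kcal/mol, dre-miR-22b-5p_R-1 formed 18 at -26.0 kcal/mol, and ccr-mir-22a-p5 formed 14 at -21.1 kcal/mol.

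The libraries held 2038299 to 8497215 counts, with hypoxia replicate 1 the shallowest. It also had the fewest entries detected, 462 against 643 to 725 in the other 5. Levels are given as CPM, the usual scaling of counts to a fixed library size, with TMM factors for the scaling between libraries. A count of 3, taken as the floor of detection, came to 0.353 to 1.47 CPM without these factors, depending on the library. Such floors cover counting error only, since no molecular identifiers are mentioned. miR-122, a marker of hepatocytes, was the most abundant miRNA of the table, at means of 228907 CPM under hypoxia and 246928 CPM under normoxia (tni-miR-122_R-1).

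miR-22 and miR-21 were among the main miRNAs of the vesicles, and neither was called different after 4 h of hypoxia. Together they took 7.83% to 9.95% of all counts in a library. dre-miR-22a-3p was the third most abundant entry in each of the 6 libraries (rank 3), and oni-miR-21 held ranks 12 to 15. Of the 14 entries, 13 passed the filter on low counts and were tested across all 519 tested entries. An entry was called at an adjusted p under 0.05 in edgeR's quasi-likelihood test, where adjusted means by Benjamini-Hochberg over all of them. By this test 0 of the 13 were called, against 14 of all 519 entries (2.70%). At an unadjusted p under 0.05 there were 2 of 13, against 18.5% of all tested entries. DESeq2 and limma-voom also called 0, with 3 and 2 entries at an unadjusted p under 0.05. The log2 fold changes of the 13 ran from -0.33 to 0.47, with a median of -0.14, beside a median of -0.04 over all tested entries. In 9 of the 13 the fold change lay below 0, which held for 55.3% of all tested entries.

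**Figure D1:**
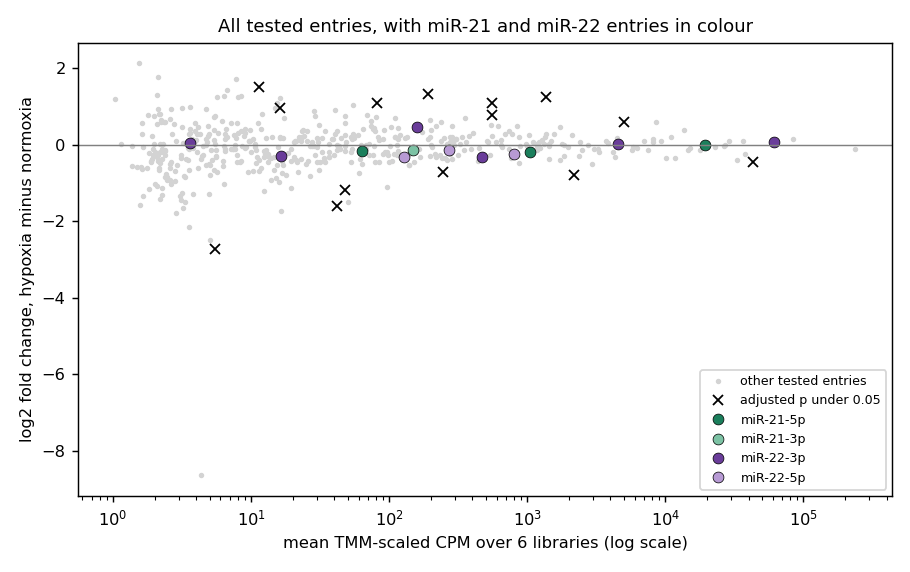
Mean TMM-scaled CPM over the 6 libraries (x axis, log scale) against the log2 fold change, hypoxia minus normoxia (y axis), for the 519 tested entries. The 13 miR-21 and miR-22 entries (coloured circles) sit between -0.33 and 0.47, and none is among the 14 entries with an adjusted p under 0.05 (crosses).

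miR-21-5p differed between the groups by less than the spread between libraries. Its main sequence, oni-miR-21, stood at 17907, 20249 and 19493 TMM-scaled CPM in hypoxia replicates 1, 2 and 3. In normoxia replicates 1, 2 and 3 it stood at 17864, 19221 and 21102 CPM. The groups overlapped, and the lowest and highest libraries were both of normoxia. The hypoxia mean was 19216 ± 1195 CPM and the normoxia mean 19396 ± 1626 CPM (SD, n = 3 each). On the log2 scale the fold change was -0.01 ± 0.10 (SE; edgeR adjusted p = 0.975), with a 95% interval of -0.24 to 0.21.

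The variant dre-miR-21_1ss23CA, which carries C23A at its last base, was the second sequence of the arm. It measured 955, 1057 and 923 CPM in hypoxia replicates 1, 2 and 3 and 1021, 1092 and 1239.5 CPM in normoxia replicates 1, 2 and 3. These ranges overlapped, with a log2 fold change of -0.19 ± 0.12 (SE; edgeR adjusted p = 0.450). The value was -0.03 with offsets for GC content and length and -0.09 without normoxia replicate 3. The rarest sequence, aca-miR-21-5p_R+1, lay between 49.1 and 92.3 CPM, with its highest values in hypoxia replicate 1 and normoxia replicate 3. Its log2 fold change was -0.17 ± 0.27.

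Because no source used here gives the rule by which reads were divided among near-identical sequences, the entries of an arm were also summed and tested in the same way. The miR-21-5p sum averaged 20255 ± 1221 CPM under hypoxia and 20580.4 ± 1756 CPM under normoxia. Its log2 fold change of -0.02 ± 0.10 did not pass (edgeR adjusted p = 0.940). The 95% interval of the fold was 0.84 to 1.15. The sign of this small value changed to 0.02 with total counts only, 0.03 with upper-quartile scaling, 0.12 with offsets for GC content and length, 0.07 without hypoxia replicate 1 and 0.06 without normoxia replicate 3. In the fit with arm sums 14 of 510 features were called (2.75%), and 0 of the 4 arm sums were among them.

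miR-21-3p, the strand that is usually discarded, was present at a low level. It measured 147, 149 and 129 CPM in hypoxia replicates 1, 2 and 3, and 157, 132 and 179.5 CPM in normoxia replicates 1, 2 and 3. The ranges overlapped, and normoxia replicate 3 was the highest library. On the log2 scale the fold change was -0.14 ± 0.16 (SE; edgeR adjusted p = 0.687), with a 95% interval of -0.50 to 0.22. It was -0.01 without normoxia replicate 3, -0.06 without hypoxia replicate 3 and -0.28 without normoxia replicate 2.

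miR-22-3p was the most abundant of the 4 arms. dre-miR-22a-3p stood at 68146, 50977 and 68325 CPM in hypoxia replicates 1, 2 and 3. In normoxia replicates 1, 2 and 3 it stood at 61171, 57166 and 58551 CPM. Hypoxia replicates 1 and 3 lay above the 3 normoxia libraries and hypoxia replicate 2 below them. The means were 62483 ± 9964 CPM and 58963 ± 2034 CPM. The fold change was 0.08 ± 0.12 on the log2 scale (SE; edgeR adjusted p = 0.734). For the miR-22-3p sum the log2 fold change was 0.08 ± 0.11 (edgeR adjusted p = 0.756), and the 95% interval of the fold was 0.88 to 1.26. Without hypoxia replicate 2 the log2 fold change of the sum was 0.21, and it did not pass either.

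The 20 nt form, oni-miR-22b_R-1, was the second sequence of the arm. It lay at 3984 to 5076 CPM under hypoxia and at 4084 to 5309.8 CPM under normoxia. It had a log2 fold change of 0.01 ± 0.14. Its share of the miR-22-3p counts was 6.17% to 7.17% in hypoxia and 6.19% to 8.23% in normoxia, so the ranges overlapped.

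dre-miR-22b-3p_1ss11TC, the form with A18G, had the highest fold of the 13 entries. It measured 192, 135 and 225 CPM in hypoxia replicates 1, 2 and 3 and 123, 133 and 142 CPM in normoxia replicates 1, 2 and 3. Hypoxia replicates 1 and 3 stood above normoxia, and hypoxia replicate 2 lay within its range. The log2 fold change was 0.47 ± 0.19 (SE; edgeR, unadjusted p = 0.0367, adjusted p = 0.235), and the entry was not called. It was called only without hypoxia replicate 2, at 0.67 ± 0.15 (edgeR adjusted p = 0.0249). In that setting 52 entries of the whole table were called, against 14 with all libraries. With any other library left out the log2 fold change of dre-miR-22b-3p_1ss11TC was 0.31 to 0.54 and it was not called.

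ola-miR-22_R+1, the form with T22C, lay on the other side. It measured 424, 427 and 409 CPM in hypoxia replicates 1, 2 and 3 and 562, 521 and 485 CPM in normoxia replicates 1, 2 and 3. All 3 hypoxia libraries lay below all 3 normoxia libraries. The log2 fold change was -0.32 ± 0.12 (SE; edgeR, unadjusted p = 0.0283, adjusted p = 0.207), and the entry was not called. Groups that did not overlap on TMM-scaled CPM were found for 2 of the 13 entries, against 26.0% of all tested entries.

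The remaining miR-22-3p forms were rare. ola-miR-22_R+1_1ss21GC lay at 9.72 to 20.6 CPM and hsa-miR-22-3p at 2.43 to 4.47 CPM, with log2 fold changes of -0.30 ± 0.27 and 0.05 ± 0.43. ola-miR-22_R+1_1ss18AG, which combines A18G and T22C, had 6 and 9 counts in hypoxia replicates 2 and 3 and 0 counts in the other 4 libraries. It did not pass the filter on low counts and was not tested. A count of 0 allows up to 1.47 CPM in hypoxia replicate 1 and up to 0.538 CPM in normoxia replicate 3, the shallowest normoxia library, beside the 0.829 and 1.44 CPM where it was detected.

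In the miR-22-5p arm all 3 entries had log2 fold changes below 0, and none was called. dre-miR-22a-5p_R-1 measured 577, 821 and 818 CPM in hypoxia replicates 1, 2 and 3 and 798, 849 and 983 CPM in normoxia replicates 1, 2 and 3. Hypoxia replicate 1 was the lowest library, and the other hypoxia libraries lay within the normoxia range. A log2 fold change of -0.24 ± 0.16 (SE; edgeR adjusted p = 0.457) was found. Without hypoxia replicate 1 it was -0.05.

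dre-miR-22b-5p_R-1 measured 100.1, 108 and 128 CPM in hypoxia replicates 1, 2 and 3 and 149.5, 129 and 145 CPM in normoxia replicates 1, 2 and 3. The groups did not overlap on TMM-scaled CPM, though hypoxia replicate 3 and normoxia replicate 2 were close. As percent of all counts, without that scaling, they overlapped, with 0.0133% in hypoxia replicate 3 and 0.0126% in normoxia replicate 2. The log2 fold change was -0.33 ± 0.15 (SE; edgeR, unadjusted p = 0.0599, adjusted p = 0.293). The related ccr-mir-22a-p5, at 235 to 275 CPM under hypoxia and 269 to 305 CPM under normoxia, had a log2 fold change of -0.14 ± 0.13.

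The miR-22-5p sum was 912, 1204 and 1211 CPM in hypoxia replicates 1, 2 and 3 and 1216, 1260.1 and 1432 CPM in normoxia replicates 1, 2 and 3. On TMM-scaled CPM the groups lay side by side without overlap, separated by a narrow gap. Groups without overlap were found for 26.3% of all features in that fit. As percent of all counts, without that scaling, the miR-22-5p groups overlapped. These percents were 0.0920, 0.120 and 0.126 in hypoxia replicates 1, 2 and 3. In normoxia replicates 1, 2 and 3 they were 0.120, 0.123 and 0.141. The log2 fold change was -0.23 ± 0.14 (SE; edgeR adjusted p = 0.421), with a 95% interval of the fold from 0.68 to 1.06. Without hypoxia replicate 1, which held the lowest value, the log2 fold change was -0.06.

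**Figure D2:**
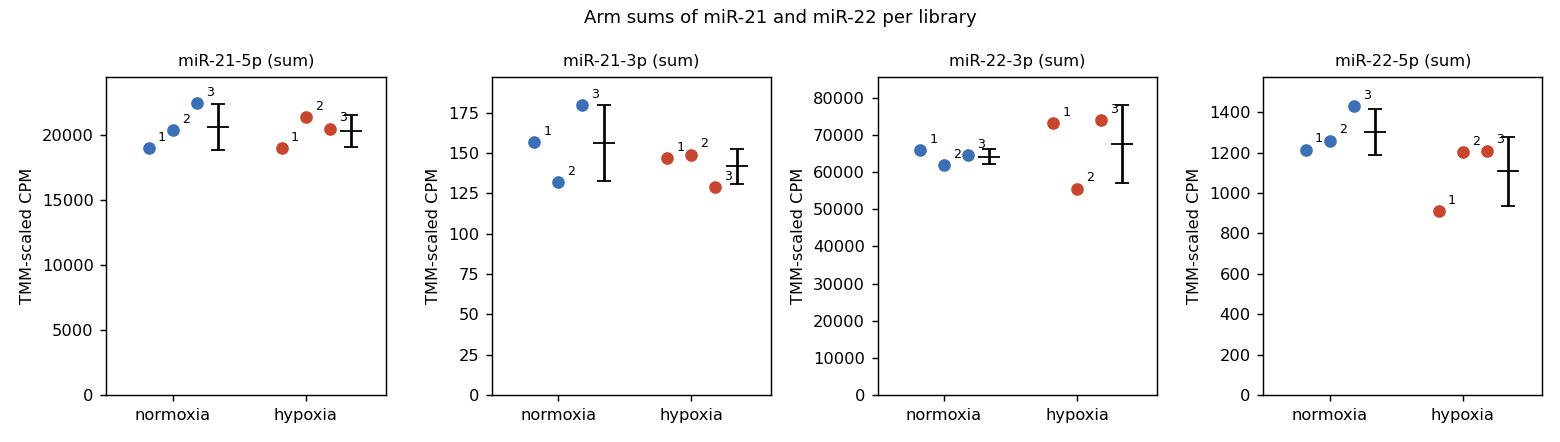
TMM-scaled CPM (y axes, from 0) of the 4 arm sums in normoxia (blue) and hypoxia (red), 3 libraries each, numbered by replicate, with the mean and SD in black. On this scale miR-21-5p, miR-21-3p and miR-22-3p overlap between groups, while the miR-22-5p sums end at 1211 CPM in hypoxia and begin at 1216 CPM in normoxia. Without the scaling, as percent of all counts, the miR-22-5p groups overlap too.

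**Figure D3:**
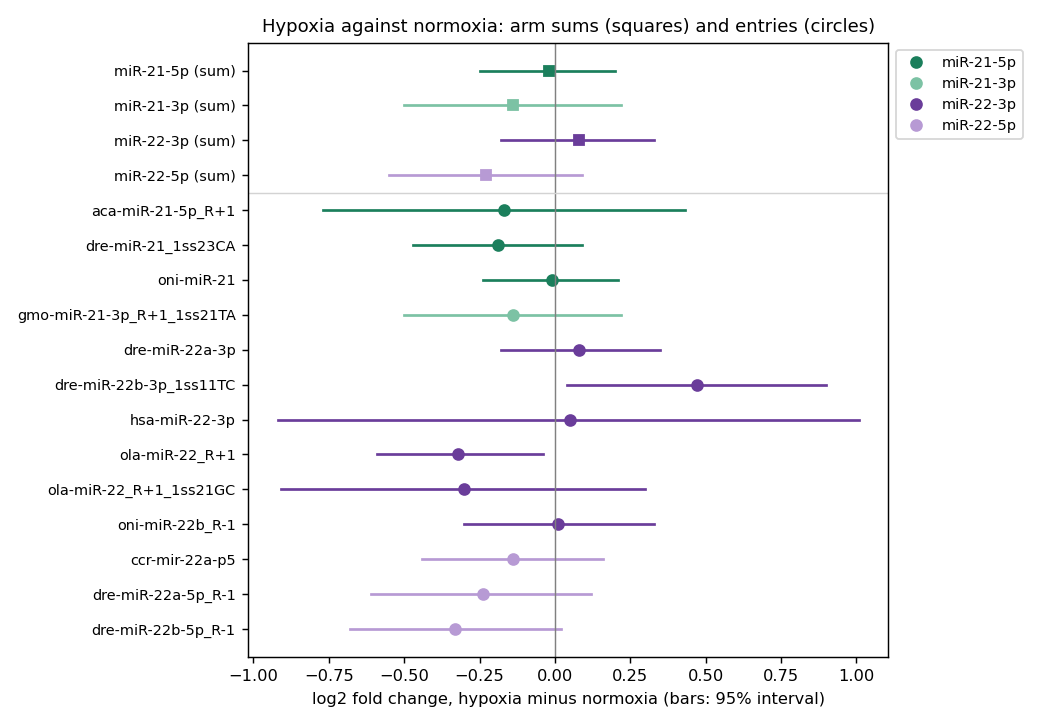
Log2 fold change, hypoxia minus normoxia (x axis), with its 95% interval, for the 4 arm sums (squares) and the 13 tested entries (circles), coloured by arm. The intervals of dre-miR-22b-3p_1ss11TC (0.04 to 0.90) and ola-miR-22_R+1 (-0.59 to -0.04) leave out 0, without adjustment for the number of tests.

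In order of mean level over the 6 libraries, dre-miR-22a-3p (60723 CPM) was followed by oni-miR-21 (19306 CPM) and oni-miR-22b_R-1 (4511 CPM). The ranges of these 3 did not overlap with their neighbours. dre-miR-21_1ss23CA (1048 CPM) and dre-miR-22a-5p_R-1 (808 CPM) came next and overlapped with each other over the libraries. Both had been listed 2 times and summed, so their levels and places in this order depend on the summing. ola-miR-22_R+1 (471 CPM) and ccr-mir-22a-p5 (272 CPM) stood apart from their neighbours. dre-miR-22b-3p_1ss11TC (159 CPM), the miR-21-3p entry (149 CPM) and dre-miR-22b-5p_R-1 (127 CPM) overlapped in turn. Ligation and PCR favour some sequences over others, so these levels rank reads and not molecules.

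Arm use was compared within each library, where the scaling between libraries has no part. The arms differ in sequence, so the folds between them are also of reads and not of molecules. For miR-21 the 5p counts exceeded the 3p counts 121-fold to 159-fold. The log2 ratios were 7.01, 7.16 and 7.31 in hypoxia replicates 1, 2 and 3 and 6.92, 7.27 and 6.96 in normoxia replicates 1, 2 and 3, and the groups overlapped. The difference of 0.11 had an exact two-sided permutation p of 0.5 (Benjamini-Hochberg adjusted 0.72). For miR-22 the dominance was of the 3p arm and smaller, 45.0-fold to 80.4-fold. The main 5p entry, dre-miR-22a-5p_R-1, had its 2 listings summed, and the fold would be higher with its value taken once. The log2 ratios of 3p to 5p were 6.33, 5.53 and 5.93 in hypoxia replicates 1, 2 and 3 and 5.76, 5.62 and 5.49 in normoxia replicates 1, 2 and 3. Hypoxia replicates 1 and 3 lay above normoxia and hypoxia replicate 2 within it. The difference was 0.31, with 0.11 without hypoxia replicate 1 and 0.51 without hypoxia replicate 2 (exact two-sided permutation p with all libraries 0.3, Benjamini-Hochberg adjusted 0.6). With 3 against 3 libraries the smallest p of this test is 0.1, so that no ratio or share could pass. Benjamini-Hochberg values were taken over 12 comparisons, the 2 arm ratios, the 2 shares of all counts and 8 shares within an arm.

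As shares of all counts, miR-21 took 2.07% ± 0.126 in hypoxia and 2.04% ± 0.175 in normoxia (SD, n = 3 each; exact permutation p = 0.9). miR-22 took 6.99% ± 1.15 and 6.44% ± 0.251 (SD, n = 3 each; exact permutation p = 0.4). The miR-22 share was 7.49%, 5.68% and 7.81% in hypoxia replicates 1, 2 and 3 and 6.65%, 6.16% and 6.51% in normoxia replicates 1, 2 and 3. Both the lowest and the highest libraries were of hypoxia. The difference in the miR-22 share, hypoxia minus normoxia, was 0.551 percentage points, and it was 0.303, 1.21 and 0.141 points without hypoxia replicates 1, 2 and 3. miR-22-3p exceeded miR-21-5p 3.87-fold, 2.60-fold and 3.62-fold in hypoxia replicates 1, 2 and 3, and 3.48-fold, 3.04-fold and 2.88-fold in normoxia replicates 1, 2 and 3.

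Within the arms, the share of each minor sequence of at least 10 CPM on average was followed, 8 in all, a comparison added after the values had been seen. In 2 of the 8 the groups did not overlap. By level, groups without overlap were found for 26.0% of all tested entries, and shares within the arms of other families were not taken. dre-miR-21_1ss23CA made up 5.04%, 4.95% and 4.51% of the miR-21-5p counts in hypoxia replicates 1, 2 and 3 and 5.39%, 5.36% and 5.53% in normoxia replicates 1, 2 and 3. The difference was -0.593 percentage points (exact two-sided permutation p = 0.1, the smallest possible; Benjamini-Hochberg adjusted 0.6). This sequence was listed 2 times in the table, and at its listed value, taken once, the difference was -0.312 points. dre-miR-22b-3p_1ss11TC made up 0.263%, 0.244% and 0.304% of the miR-22-3p counts in hypoxia replicates 1, 2 and 3 and 0.187%, 0.215% and 0.221% in normoxia replicates 1, 2 and 3. The difference was 0.0625 points (exact two-sided permutation p = 0.1; Benjamini-Hochberg adjusted 0.6), and 0.0457 to 0.0756 points with 1 library left out. ola-miR-22_R+1 made up 0.552% to 0.769% in hypoxia and 0.752% to 0.852% in normoxia, and these ranges overlapped. For the 5p arm of miR-22, ccr-mir-22a-p5 took 21.8% to 25.7% in hypoxia and 21.3% to 22.4% in normoxia, and dre-miR-22b-5p_R-1 took 8.99% to 11.0% and 10.1% to 12.3%.

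**Figure D4:**
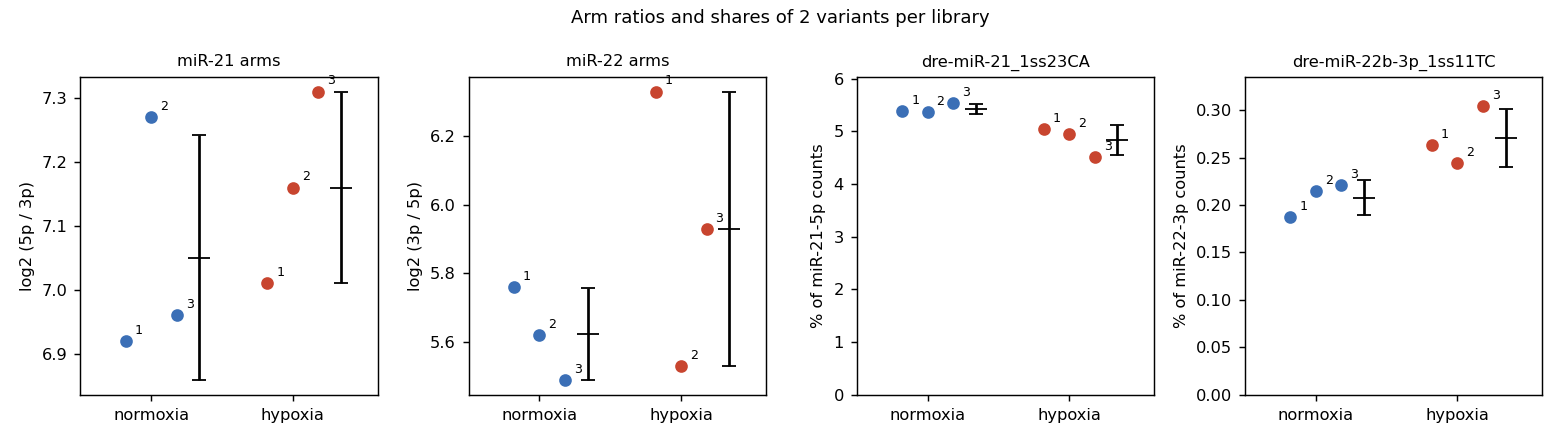
Log2 arm ratios of miR-21 (5p over 3p) and miR-22 (3p over 5p), on axes that do not start at 0, and the percent of arm counts taken by dre-miR-21_1ss23CA and dre-miR-22b-3p_1ss11TC, per library, with the mean and SD in black. The arm ratios overlap between normoxia (blue) and hypoxia (red). The 2 shares are the only ones followed whose groups did not overlap. They stand at 4.51% to 5.04% in hypoxia against 5.36% to 5.53% in normoxia, and at 0.244% to 0.304% against 0.187% to 0.221%.

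Among the 163 other entries of at least 100 CPM, those whose log2 CPM moved most like oni-miR-21 over the 6 libraries were oni-miR-126 (Pearson r = 0.93), gmo-miR-222-2-5p_R+1_1ss11GT (0.92) and oni-miR-17a_R+1_1ss1CT (0.88). Their log2 fold changes were -0.03, -0.03 and -0.11. Those most like dre-miR-22a-3p were hsa-miR-199a-5p (0.97), ccr-miR-30d (0.95) and ccr-miR-205_R+1 (0.95), with log2 fold changes of 0.10, 0.01 and 0.15. These are the highest of many correlations over few libraries that share their depth and scaling, and they describe these libraries only.

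Of 47 tested entries of hypoxia-associated families, a list chosen with earlier results of these data known, 2 rose, 2 fell and 43 did not pass, with a median log2 fold change of -0.05, beside -0.04 over all tested entries. The background was 1.54% higher and 1.16% lower. Both entries that rose were arms of miR-210, a miRNA induced by hypoxia in many vertebrate cells. The log2 fold change of dre-miR-210-3p_R-2 was 1.25 ± 0.17 (edgeR adjusted p = 0.00797), in the same libraries in which the 95% interval of the miR-21-5p sum ended at 0.20. The 2 that fell were the miR-26 entries gmo-miR-26a-5p (-0.45 ± 0.10) and gmo-miR-26b-5p_R+1_1ss22TA (-1.19 ± 0.26), each with an edgeR adjusted p of 0.0494. With total counts only, with upper-quartile scaling, with each sequence at its listed value and with offsets for GC content and length, 0 entries of the list were called lower, and 2, 3, 2 and 2 were called higher. DESeq2 called 3 higher and 5 lower. With limma-voom and without a filter on low counts 3 were called higher and 2 lower, and with the replicate block 2 and 2. With 1 library left out, the list had 0 to 4 entries called higher, with 0 without normoxia replicate 2, and 0 lower except for 5 without hypoxia replicate 2. miR-424 had no entry in the table.

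Markers of other cell types were read as summed CPM per library. Erythrocyte miRNAs (miR-451, miR-144 and miR-486) reached 7201 to 9172 CPM under hypoxia and 4842 to 5916 CPM under normoxia, and 2 of 7 tested entries rose, against a background of 1.54% called higher. These were dre-miR-451 (log2 fold change 0.60) and gmo-miR-144-3p (1.09), each with an edgeR adjusted p of 0.0494. bta-miR-486 had a log2 fold change of -0.98 and was not called (edgeR adjusted p = 0.152), and these 3 entries are named after their values were seen. The number called higher was 1 with total counts only, with the replicate block, with the GC and length offsets and without hypoxia replicate 3. It was 0 without hypoxia replicate 1 or without any 1 of the 3 normoxia replicates. Without a filter on low counts, 2 entries of this list were called higher and 1 lower. The endothelial miR-126 reached 15765 to 17730.2 CPM and 11827 to 13514 CPM, which did not overlap, with 0 of 4 called. Its main entry, gmo-miR-126-3p_R-1, had a log2 fold change of 0.39 ± 0.10 (edgeR adjusted p = 0.0757), and oni-miR-126 had -0.03 ± 0.20. The rarer dre-miR-126b-5p_L+1 and dre-miR-126b-3p_R+1 had 0.30 and 0.36. Hepatocyte miRNAs took 238914 to 288017 CPM under hypoxia and 278844 to 290033 CPM under normoxia, with 0 of 11 called. Leukocyte (3666 to 4026 and 3552 to 4261 CPM, 0 of 6 called), stromal (83666 to 85793 and 82039.6 to 86879 CPM, 0 of 14) and muscle miRNAs (694 to 932 and 724 to 774 CPM, 0 of 5) overlapped between groups. Pancreas miRNAs reached 1121 to 1398 CPM and 1399 to 1652 CPM, which did not overlap but nearly met, with 0 of 4 called. Their log2 fold changes were mixed: 0.49 for dre-miR-216a, -0.41 for dre-miR-216b, -0.35 for dre-miR-217_R+1 and -1.10 for dre-miR-375_R-1. The erythrocyte sums did not overlap either. Among single tested entries 26.0% had groups without overlap, and no such share was taken for sums. Each family of these lists had an entry in the table. The part of these cells in the miR-21 and miR-22 values was not tested. In such bulk samples fewer vesicles of a cell type and less of a miRNA per vesicle cannot be told apart.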

How the data were processed

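Small RNA of liver-derived vesicles was ligated to adapters, amplified and read on a NovaSeq X Plus, per the labels' protocols. The authors deposited unscaled estimated counts per listed sequence. No source used here gives the aligner, the miRNA caller, the filters or the rule for dividing reads. Values above 0 were whole, to within 1e-06, in 70.0% of cases as listed and in 89.0% after summing. The 1088 rows held 874 sequences, 195 of them listed more than once with the same value. Listings of a sequence were summed, and in 18 cases sequences of a precursor with identical values were joined, which gave 841 entries. Of the 14 entries described, 2 had been listed 2 times.

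Counts were rounded. After filterByExpr and TMM scaling, edgeR 4.0.16 (glmQLFit, glmQLFTest; R 4.3.3) compared the groups without a block. Benjamini-Hochberg adjustment was over all tested entries, which held 99.98% of counts. Standard errors were the absolute log2 fold change over the square root of F. Arm sums replaced the entries in a further fit, with the scaling factors of the table of entries. Arm ratios used a pseudocount of 0.5. Single values had exact permutation tests (SciPy 1.17.1). Duplexes were computed with ViennaRNA 2.7.2. The fits were also run on counts simulated from the fitted model, with set changes larger than that of any miR-21 or miR-22 entry. That run does not show how well changes of the size seen here would be found. DESeq2 1.42.0, limma 3.58.1 (voom) and other scalings, filters, offsets and left-out libraries were alternatives. Every miR-21 and miR-22 entry was named. Similar entries were the 3 best correlated ones. The design set that from each list the called entries, otherwise the most abundant, be named. Further erythrocyte, endothelial and pancreas entries were named outside this rule. From the leukocyte, stromal and muscle lists none was named. Members and lists were chosen with earlier results of these data known. A second list of related families set in the design is not reported here.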

Additional observations from a re-analysis of the deposited data

How the results depend on the processing

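The count of called miR-21 and miR-22 entries stayed at 0 in each setting other than without hypoxia replicate 2, where it was 1 (range with 1 library left out 0 to 1). Over all entries 14 were called. The count was 5 with total counts only, 41 with DESeq2, 22 with limma-voom, 59 without a filter on low counts, 3 with offsets for GC content and length, and 1, 52 and 2 without hypoxia replicates 1, 2 and 3 and 1, 0 and 5 without normoxia replicates 1, 2 and 3. With the replicate block it was 7, and no miR-21 or miR-22 entry was called. The labels give same-numbered libraries only a number in common. Their deviations from the group means had Pearson r of -0.13, -0.06 and -0.05 across 519 entries, and none of the 3 pairs was the best match. Such correlations over 3 libraries per group cannot exclude a shared tank or batch. The miR-21-5p sum (-0.02) changed sign to 0.02 with total counts only, 0.03 with upper-quartile scaling and 0.12 with the offsets, and lay at -0.06 to 0.07 with 1 library left out. The miR-21 share of counts (difference 0.0308 points) lay at -0.0444 to 0.127 with 1 library left out. The other arm sums, both arm ratios and the miR-22 share kept their direction in each setting run. None of these arm sums passed the threshold. The ratios and the share could not pass in any setting, because their exact tests have too few libraries.

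Of 182 values of the 13 tested entries under 14 settings, 14 changed sign and 1 came to pass. oni-miR-21 lay at 0.03 with total counts only, 0.04 with upper-quartile scaling, 0.10 with the offsets and -0.05 to 0.08 with 1 library left out. aca-miR-21-5p_R+1 lay at 0.04 with the offsets and -0.38 to 0.14 with 1 library left out, hsa-miR-22-3p at -0.12 to 0.25, and oni-miR-22b_R-1 at -0.0036 without the filter, -0.09 with the offsets and -0.08 to 0.17. Shares within an arm, an addition after the data were seen, changed sign for aca-miR-21-5p_R+1 (-0.0839 to 0.0236 points) and oni-miR-22b_R-1 (-0.680 to 0.339 points) with 1 library left out. The causes were not tested. Of the 14 sign changes of entries, oni-miR-21 and oni-miR-22b_R-1 had 5 each. The rarer aca-miR-21-5p_R+1 and hsa-miR-22-3p had 2 each. A single count was worth 0.491 CPM in hypoxia replicate 1, the shallowest library, against 0.118 CPM in normoxia replicate 1.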
